A study of Mus musculus with 4 samples.

Results

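The genes described here are 9 secreted factors and receptors of the niche that maintains spermatogonial stem cells: the ligands Gdnf, Fgf2, Lif and Bmp4, and the receptor genes Gfra1, Ret, Fgfr1, Lifr and Il6st. They were picked by name and without a filter on their values, but earlier results of these data were known. Every probe set of the Affymetrix Mouse 430A array annotated to 1 of these genes and to no other was taken, which gave 16 probe sets of 22626 analysed, and 9 genes of 12393. Gdnf, Ret, Fgf2 and Bmp4 have 1 probe set each, Gfra1, Fgfr1 and Lif have 2 each, and Lifr and Il6st have 3 each.

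The study set 2 kinds of sterile adult male mouse side by side as possible hosts for transplanted germ cells. W/Wv males carry 2 mutant alleles of Kit, the receptor tyrosine kinase for stem cell factor, so that germ cells largely fail while Kit is also altered in other cells that use it, Leydig and mast cells among them. They were bought, as WB x B6 crosses. XX/Sry males have 2 X chromosomes and the testis-determining gene Sry; their strain, and the line and promoter of the Sry transgene, were not stated in any label used here, and XX germ cells do not complete spermatogenesis in a testis. Whole testes and isolated seminiferous tubules of both genotypes were measured, and it is not stated whether they came from the same animals. For the tubules, the testis was freed of its tunica, digested with 5 mg/ml collagenase at 37 °C for 40 min and washed over a 70 µm strainer to take away interstitial cells. No fertile testis is among the samples, so every genotype ratio compares these 2 sterile testes with each other, and genotype cannot be told apart from strain. Each of the 4 groups has 1 array, so no spread between replicates is known, and each fold change below is a ratio of 2 single arrays unless a fit is named.

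As background, glial cell line-derived neurotrophic factor (GDNF) is made by Sertoli and peritubular cells and signals through the anchored co-receptor GFRA1 and the kinase RET on undifferentiated spermatogonia, where it favours self-renewal over differentiation. FGF2 acts beside it through FGFR1, and GDNF and FGF signals meet at transcription factors such as ETV5. Leukaemia inhibitory factor (LIF) binds the receptor LIFR, which pairs with gp130, the product of Il6st, and activates JAK kinases and STAT3; BMP4 is a secreted signal of the opposite tendency, which promotes differentiation of spermatogonia in culture.

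Gdnf and Lifr are the ligand and the receptor described at most length by genotype, so the RefSeq sequence (GRCm38.p6) of the 250 bases just before their annotated starts is shown, 5′ to 3′ in the gene's direction. Capitals mark matches to any of 6 motifs, searched on both strands. Gdnf has 2 annotated starts, and both are shown because the probe set does not tell them apart. Lifr also has 2, of which the first is shown. The 250 bases before the second Lifr start held no match to any of the 6 motifs.
Gdnf first start (chr15:7809798-7810047, plus strand): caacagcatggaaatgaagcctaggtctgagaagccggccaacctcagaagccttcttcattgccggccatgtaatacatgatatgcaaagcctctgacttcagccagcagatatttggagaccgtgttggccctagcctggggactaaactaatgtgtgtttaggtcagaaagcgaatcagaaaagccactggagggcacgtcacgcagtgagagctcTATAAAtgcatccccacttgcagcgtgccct
Gdnf second start (chr15:7813477-7813726, plus strand): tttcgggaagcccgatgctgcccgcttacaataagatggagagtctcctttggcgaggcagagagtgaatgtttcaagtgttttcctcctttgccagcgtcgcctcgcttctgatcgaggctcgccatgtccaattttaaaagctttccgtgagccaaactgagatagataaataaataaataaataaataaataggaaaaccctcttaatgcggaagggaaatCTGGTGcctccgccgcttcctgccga
Lifr first start (chr15:7129322-7129571, plus strand): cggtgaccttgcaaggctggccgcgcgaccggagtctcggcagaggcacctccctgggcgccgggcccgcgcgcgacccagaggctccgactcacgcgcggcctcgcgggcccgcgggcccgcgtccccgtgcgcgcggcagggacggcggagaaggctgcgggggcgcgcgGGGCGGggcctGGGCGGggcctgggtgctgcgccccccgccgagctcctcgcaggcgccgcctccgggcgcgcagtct
The first Gdnf window holds a TATA box (TATAAA) that begins at position -31 from the start; 12.4% of the 32851 RefSeq windows of this length hold one. The second holds an N-box (CACNAG, here on the opposite strand) at -26, which 36.7% of windows hold. The Lifr window holds 2 GC boxes (GGGCGG), at -78 and -67, and 32.7% of windows hold at least 1. The E-box CACGTG (6.02% of windows), the cyclic AMP element TGACGTCA (1.55%) and the STAT site TTCNNNGAA (7.02%) were not matched in these 3 windows. No 2 matches overlap, and the E-box and the cyclic AMP element read the same on both strands. A match describes letters in the sequence; binding was not measured. Windows were found for 7 of the 9 genes, all but Ret and Fgfr1.

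Signals are MAS5 intensities on a linear scale. Their mean without the extreme 2% at each end was 497.3 to 497.7 on every array, and their medians ran from 156.8 to 182.8. As a background bound, the highest signal among 27 control probe sets for bacterial transcripts was taken on each array: 76.3 for W/Wv whole testis, 63.9 for XX/Sry whole testis, 46.1 for W/Wv tubules and 61.0 for XX/Sry tubules. Between 69.8% and 75.3% of probe sets lay above it. A fold against a signal at or below the bound is given as "at least", dividing the brighter signal by whichever of the 2 bounds is higher. The 18 hybridisation spike-in probe sets had a median deviation from their 4-array mean of 0.46 on the log2 scale on the W/Wv tubule array and of -0.18 to -0.09 on the other 3; the part of this in ratios that use the W/Wv tubule array was not tested. Sex-linked transcripts matched the labels: Xist, the X inactivation RNA, read 3099.0 and 1002.1 in XX/Sry whole testis and tubules against 130.6 and 76.7 in W/Wv, and the Y-linked Eif2s3y read 9.5 and 28.2 there against 794.7 and 580.3. Kit itself was also higher in XX/Sry, at 892.5 in whole testis and 569.4 in tubules, where W/Wv had 256.1 and 139.3.

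Cell type markers show what the samples held. The 14 measured Sertoli markers had no member that differed 2-fold the same way in both preparations between genotypes. In whole testis their summed signal was 89789.8 (W/Wv) and 99329.5 (XX/Sry), and in tubules 124945.1 and 108069.8. The 6 Leydig markers were above the bound on every array, with 5 of them at least 2-fold lower in tubules of both genotypes, and were higher in XX/Sry (summed 36886.5 and 59936.0 in W/Wv and XX/Sry whole testis, 9204.2 and 23011.9 in tubules). The 6 peritubular markers summed to 6419.8 and 9425.9 in whole testis and 12497.7 and 13268.0 in tubules, and the 6 endothelial markers to between 693.3 and 951.1. Of the 8 markers of spermatogonia and early germ cells, 5 met the study's rule, a 2-fold difference the same way in both preparations, as lower in XX/Sry by the deposited signals (3.22% of all genes), and 2, Sall4 and Id4, also against the bound (0.436%). In whole testis they summed to 4248.1 (W/Wv) and 1619.0 (XX/Sry), and in tubules to 3133.5 and 2044.8. Such sums weigh bright genes most. In XX/Sry tubules Uchl1 (973.4), Id4 (478.1) and Dazl (432.9) were the brightest, whereas Lin28a read 4.8 and Stra8 7.7. Above the bound were 8 of the 8 in W/Wv whole testis, 7 in W/Wv tubules and 4 on each XX/Sry array. Ddx4, which encodes a germ cell RNA helicase, read 0.9 and 1.8 in XX/Sry whole testis and tubules, far under the bound, where W/Wv had 304.8 and 69.2. In bulk RNA, fewer cells of a type and less RNA per cell cannot be told apart.

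**Figure D1:**
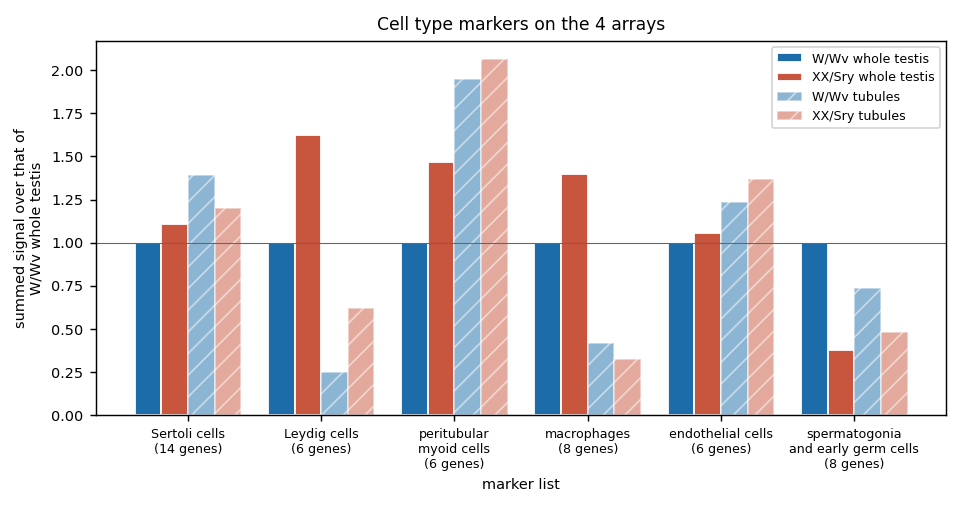
Summed MAS5 signal of 6 cell type marker lists (x axis) on each array, as a multiple of the sum on the W/Wv whole testis array (y axis); plain bars are whole testis and hatched bars are tubules, 1 array per bar and no error bar. Leydig and macrophage markers were lower in tubules of both genotypes, and the germ cell list was highest in W/Wv whole testis, where it summed to 4248.1.

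Gdnf, the ligand, was dimmer in XX/Sry in both pairs of arrays, by over 2-fold in whole testis but not in tubules. Its whole testis signals were 216.8 (W/Wv) and 49.4 (XX/Sry), and its tubule signals 283.0 (W/Wv) and 159.9 (XX/Sry). The XX/Sry whole testis array was the low one, under its bound of 63.9, and both XX/Sry signals lay below both W/Wv signals. Against the bound, XX/Sry whole testis was lower by at least 2.84-fold, and XX/Sry tubules by 1.77-fold, short of the study's rule of 2-fold in both preparations. Tubules over whole testis gave 1.31-fold in W/Wv and at least 2.50-fold in XX/Sry. In an additive limma fit of genotype and preparation over all 4 arrays, which leaves 1 residual degree of freedom, the genotype difference was -1.48 ± 0.51 on the log2 scale (SE), with an unadjusted p of 0.0147 and an adjusted p of 0.418 over all 22626 probe sets, or of 0.0659 with signals raised to the bound.

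**Figure D2:**
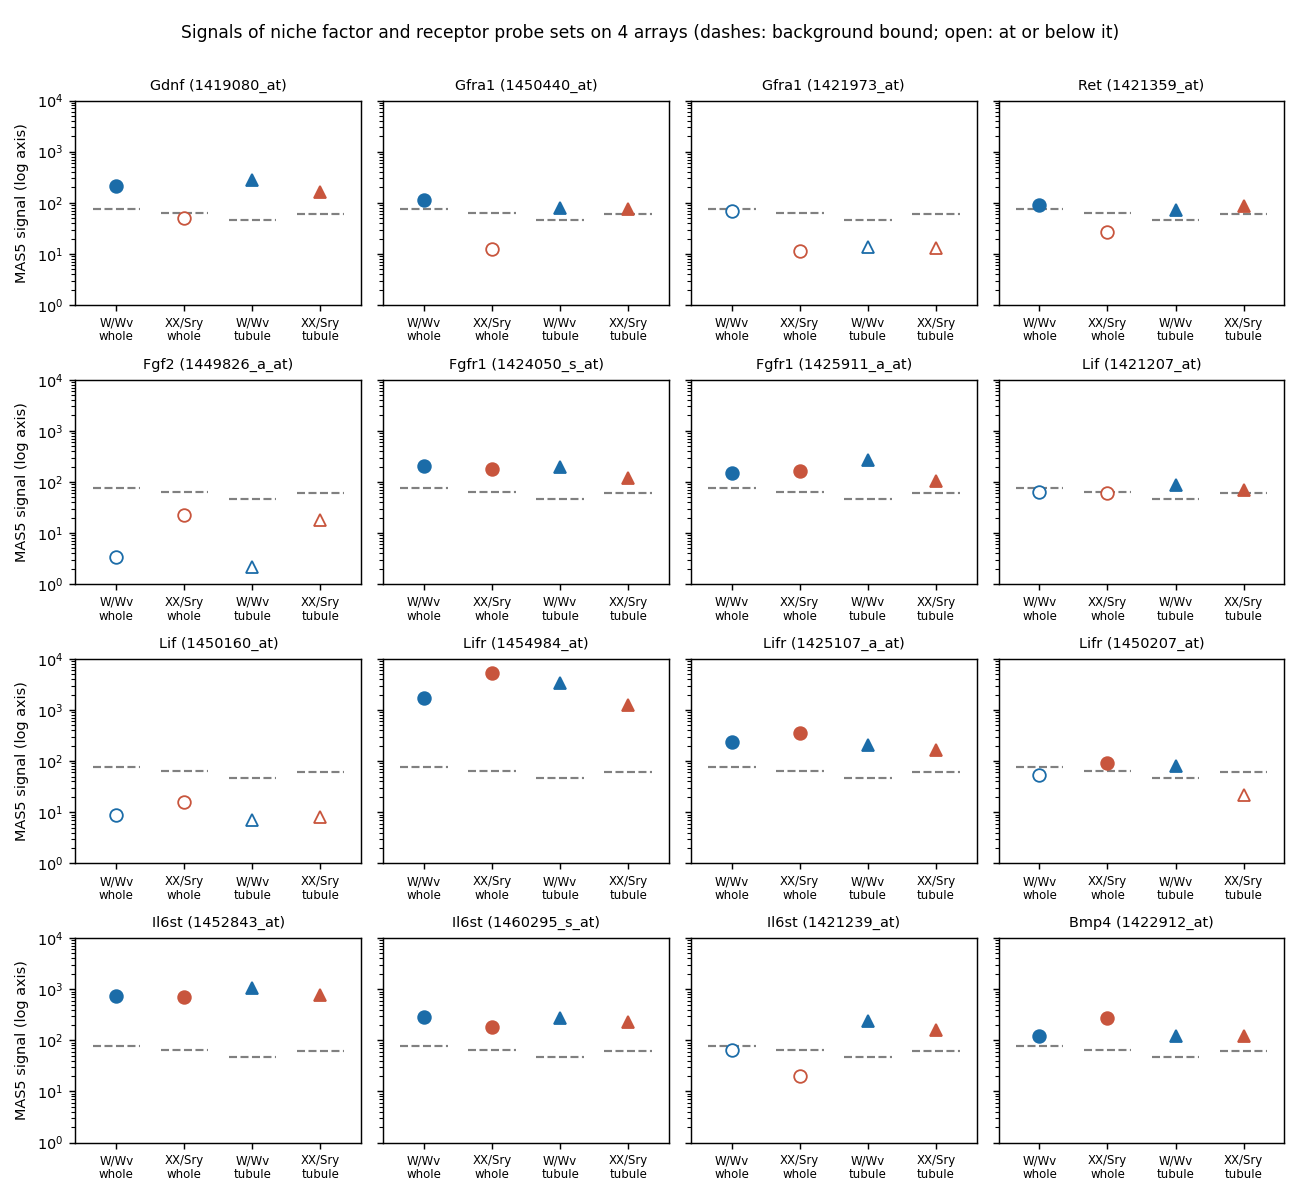
MAS5 signal (y axis, log scale) of the 16 probe sets on the 4 arrays (x axis, 1 point per array, no error bar); blue is W/Wv, red is XX/Sry, circles are whole testis and triangles tubules, dashes mark each array's background bound, and open symbols are at or below it. Gdnf (216.8, 49.4, 283.0 and 159.9 from left to right) is lower on both XX/Sry arrays, and Lifr 1454984_at (1729.6, 5307.2, 3441.7 and 1273.1) is highest in XX/Sry whole testis and lowest in XX/Sry tubules.

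The receptor genes Gfra1 and Ret were dim. Gfra1, by probe set 1450440_at, read 115.3 (W/Wv) and 12.4 (XX/Sry) in whole testis, and 79.6 and 75.7 in tubules. Only XX/Sry whole testis stood apart, under the bound, which makes it at least 1.51-fold lower than W/Wv there; the tubules were within 1.05-fold of each other. Its other probe set, 1421973_at, was at or below the bound on all 4 arrays, from 11.5 to 68.2. Ret, the kinase of the complex, read 88.9 and 27.2 in whole testis and 71.3 and 86.5 in tubules. From here on, a run of 4 signals always follows that order: W/Wv then XX/Sry whole testis, W/Wv then XX/Sry tubules. Again XX/Sry whole testis alone was under the bound, at least 1.17-fold lower than W/Wv whole testis, and in tubules XX/Sry was 1.21-fold higher. Gdnf, Gfra1 and Ret each had their lowest signal on the XX/Sry whole testis array, under its bound. In tubules XX/Sry was lower for Gdnf, within 1.05-fold for Gfra1 and higher for Ret. That array was also the lowest for 6 of 17 FGF receptor and feedback genes and 5 of 11 JAK-STAT genes. It was so for 0 of 6 Leydig and 0 of 8 macrophage markers, and the share over all genes was not counted. The limma genotype term had an adjusted p of 0.67 for Gfra1 1450440_at and 0.872 for Ret. The summed germ cell markers were also lowest on the XX/Sry whole testis array, at 1619.0, with 4 of 8 above the bound. Sertoli and peritubular markers, of the cell types that make GDNF, had sums of 99329.5 and 9425.9 there, against 89789.8 and 6419.8 in W/Wv whole testis. Of them, 5 of the 14 Sertoli and 1 of the 6 peritubular markers were lowest on that array. Such sums weigh bright markers most. Of the 14 Sertoli markers, 6 were lower in XX/Sry than in W/Wv whole testis, and the median log2 ratio was 0.07. Among the 6, Inhbb was 1.96-fold lower, Dhh 1.64-fold and Wt1 1.60-fold. The part of cell content in the Gdnf, Gfra1 and Ret ratios was not tested.

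Of the 10 GDNF family genes measured, Gdnf, Gfra1 and Ret among them, 0 reached 2-fold in both preparations by the deposited signals (1.98% of all genes higher and 3.22% lower). The GDNF-related ligand neurturin (Nrtn) read 160.0, 199.9, 143.5 and 183.5, 1.25-fold and 1.28-fold higher in XX/Sry. Gfra2, its preferred co-receptor, read 184.1, 144.6, 93.7 and 129.7, lower in XX/Sry whole testis and higher in XX/Sry tubules. Gfra3, the artemin co-receptor, read 119.6, 227.6, 57.0 and 97.0. XX/Sry exceeded W/Wv by 1.90-fold and 1.70-fold, and tubules were 2.10-fold and 2.35-fold below whole testis in W/Wv and XX/Sry. Ncam1, a GDNF receptor that needs no RET, read 44.8, 47.7, 94.6 and 61.1. It was above the bound on both tubule arrays alone, and in XX/Sry tubules only just, where the bound was 61.0.

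Genes that respond to GDNF in cultured spermatogonia or mark the stem cell pool had median genotype ratios below those of all genes by the deposited signals. Of 17 listed, 14 were measured. By the deposited signals 4 met the study's rule as lower in XX/Sry, a call that 3.22% of all 12393 genes received, and 1 was higher (1.98% of all genes). Against the bound, 3 were lower (0.436% of all genes), namely Sall4, Id4 and Cxcr4, and 0 were higher (0.734%). The median log2 ratio of the 14 was -0.67 in whole testis and -0.44 in tubules, against -0.10 and 0.00 over all genes. With signals raised to the bound the medians were -0.52 and 0.06, against -0.22 and 0.17 over all genes, so the tubule median was no longer negative. The list shares Sall4, Id4 and Zbtb16 with the germ cell marker list.

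Id4, an inhibitor of differentiation that marks stem spermatogonia and is also made in other cells, read 724.8, 269.3, 1401.1 and 478.1. Both XX/Sry arrays lay below both W/Wv arrays, 2.69-fold in whole testis and 2.93-fold in tubules. Its limma adjusted p was 0.0711. A further Id4 probe set gave 2.73-fold and 2.26-fold, and the third 1.49-fold and 1.90-fold, short of the rule. Cxcr4, the CXCL12 receptor, read 565.8, 149.5, 485.6 and 192.1, which is 3.78-fold and 2.53-fold lower in XX/Sry (adjusted p = 0.126, limma). Sall4, a pluripotency-related transcription factor of spermatogonia, read 383.8, 8.3, 162.1 and 45.6, lower by at least 5.03-fold in whole testis and by at least 2.66-fold in tubules. Its other probe set read 109.4, 26.4, 7.4 and 9.6, at least 1.43-fold lower in whole testis. That set was under the bound on both tubule arrays, so the Sall4 call rests on 1 of 2 sets. In the other direction, Egr3, an immediate early gene, read 47.7, 184.4, 40.5 and 97.5, higher in XX/Sry by at least 2.42-fold (whole testis) and at least 1.60-fold (tubules). A further gene was singled out after its values were seen: Etv5, at which GDNF and FGF signals meet, read 221.4, 126.8, 474.5 and 222.2, lower in XX/Sry by 1.75-fold in whole testis and by 2.14-fold in tubules (adjusted p = 0.507, limma). Its other probe set gave 1.45-fold and 1.24-fold, so the 2-fold tubule difference rests on 1 of 2 sets.

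**Figure D3:**
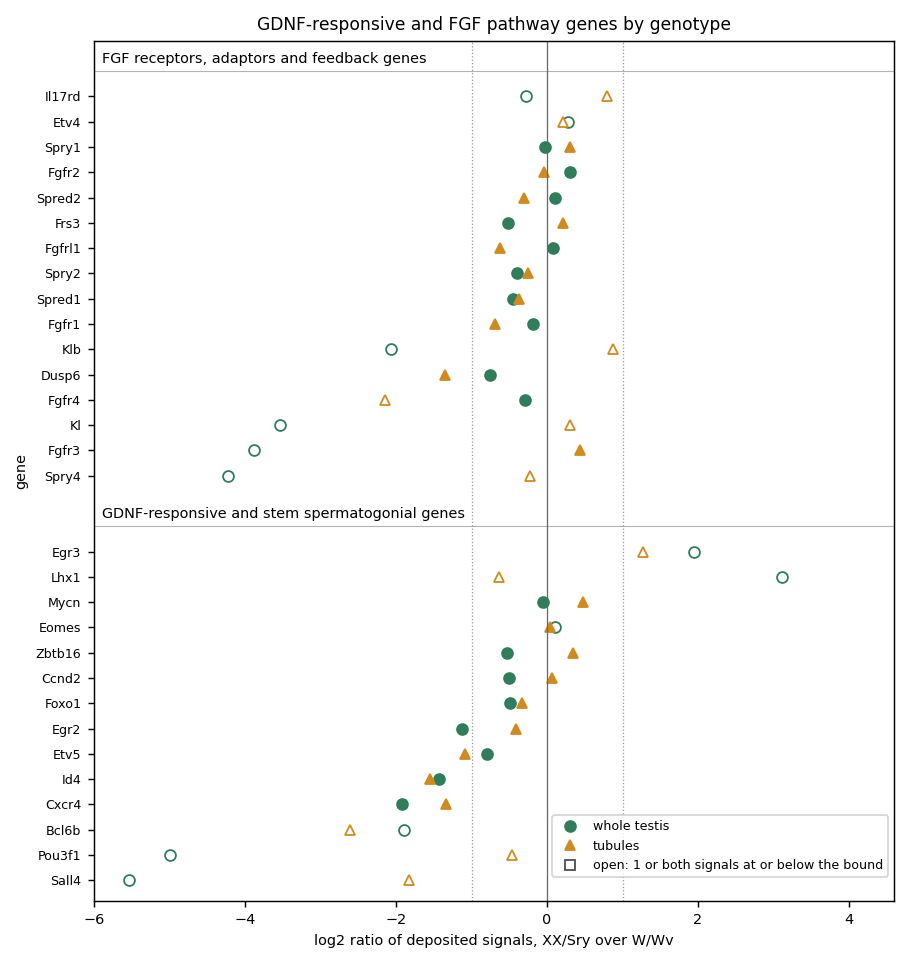
Log2 ratio of deposited signals, XX/Sry over W/Wv (x axis), for the measured genes (y axis) of the GDNF-responsive list and the FGF receptor and feedback list; circles are whole testis, triangles are tubules, each from 1 pair of arrays, open symbols rest on a signal at or below the bound, dotted lines mark 2-fold, and Etv5, which is on both lists, is drawn once. Id4 and Cxcr4 lie beyond 2-fold to the left with filled symbols in both preparations, and Dusp6 and Etv5 do so in tubules alone.

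Fgf2 was not detected above background on any array. Its single probe set read 3.4 (W/Wv) and 22.7 (XX/Sry) in whole testis, and 2.2 and 18.4 in tubules, all under the bounds. By the deposited signals it was the 1 probe set of the 16 that met the study's 2-fold rule, higher in XX/Sry, and 2.2% of all probe sets met it in that direction. Its nominal log2 differences of 2.74 and 3.06 are between signals at background and measure no fold; against the bound Fgf2 is not called. Its limma unadjusted p was 0.044 and its adjusted p 0.559. Of the 23 FGF ligands and binding proteins measured, 8 were at or below the bound on all arrays. Against the bound, 0 were 2-fold higher in both preparations (0.734% of all genes) and 0 lower (0.436%). By the deposited signals 2 were higher, Fgf2 and Fgf20 (1.98% of all genes), and 2 lower, Fgf18 and Fgf23 (3.22%). Fgf13, an intracellular family member, read 304.8, 296.5, 406.6 and 287.8, and Fgf1 read 163.2, 170.8, 156.0 and 118.3; neither differed by more than 1.41-fold between genotypes. Fgf4 was 1.10-fold and 1.29-fold lower in XX/Sry, and Fgf23 was above the bound on the W/Wv arrays alone (89.1 and 59.9, against 22.9 and 21.7).

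Fgfr1, a main receptor for FGF2, was above the bound on all arrays by both of its probe sets. Probe set 1424050_s_at read 205.0, 179.5, 192.6 and 119.3, and 1425911_a_at read 149.0, 166.1, 265.0 and 103.6. In tubules both were lower in XX/Sry, 1.61-fold and 2.56-fold. In whole testis they differed in direction, 1.14-fold lower and 1.11-fold higher, so the 2-fold difference was met in tubules by 1 of the 2 probe sets and in whole testis by neither. An s_at probe set can bind transcripts of related genes and an a_at probe set binds several transcripts of 1 gene, and which transcripts differ was not tested. The limma genotype term had adjusted p-values of 0.864 and 0.823.

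Around the receptor, 17 of 18 listed FGF receptors, adaptors and feedback genes were measured, and 0 differed 2-fold in both preparations by the deposited signals (1.98% of all genes higher and 3.22% lower). The median log2 ratio was -0.40 in whole testis and -0.22 in tubules, against -0.10 and 0.00 over all genes. With signals raised to the bound the medians were -0.29 and -0.04, against -0.22 and 0.17 over all genes. Dusp6, a phosphatase induced by FGF and other ERK signals that damps ERK, read 529.5, 314.1, 1225.9 and 481.5, lower in XX/Sry by 1.69-fold in whole testis and by 2.55-fold in tubules (adjusted p = 0.272, limma). Among the receptors, singled out after their values were seen, Fgfr3 read 185.7, 12.6, 67.8 and 92.1, with XX/Sry lower by at least 2.43-fold in whole testis, and Fgfr4 read 152.5, 125.1, 187.9 and 42.7, with XX/Sry lower by at least 3.08-fold in tubules. Fgfr2 read 638.8, 791.7, 399.8 and 388.4, and Fgfrl1, a receptor without a kinase domain, read 368.9, 390.8, 704.8 and 458.1. Spry1, a feedback inhibitor, read 357.3, 349.7, 644.4 and 794.6, so it was 1.80-fold and 2.27-fold higher in tubules while the genotypes were within 1.23-fold. The W/Wv tubule array was the highest for Dusp6, Etv5 and Fgfrl1, and it is also the array with the spike-in deviation of 0.46.

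Lif was at the edge of detection. Probe set 1421207_at read 64.5 (W/Wv) and 61.8 (XX/Sry) in whole testis, both under their bounds, and 87.6 and 68.8 in tubules, both above. In tubules it was 1.27-fold lower in XX/Sry. The other probe set, 1450160_at, was below the bound on all arrays, from 6.9 to 15.9. Among the related ligands, Clcf1 read 102.2, 116.0, 107.7 and 102.9, within 1.14-fold between genotypes.

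Lifr, the LIF-binding receptor, gave opposite genotype ratios in the 2 preparations. Its brightest probe set, 1454984_at, read 1729.6 (W/Wv) and 5307.2 (XX/Sry) in whole testis, and 3441.7 and 1273.1 in tubules, all far above the bound. In whole testis XX/Sry was 3.07-fold higher than W/Wv, and in tubules it was 2.70-fold lower. Seen by preparation, tubules were 1.99-fold higher than whole testis in W/Wv and 4.17-fold lower in XX/Sry, and the ratio of the 2 genotype ratios was 8.30-fold. The other 2 probe sets had the same directions by genotype. By preparation 1450207_at also did, whereas 1425107_a_at was lower in tubules of both genotypes, by 1.15-fold in W/Wv and 2.15-fold in XX/Sry. Probe set 1425107_a_at read 236.5, 356.0, 206.5 and 165.7, 1.51-fold higher and 1.25-fold lower in XX/Sry. Probe set 1450207_at read 52.9, 90.8, 81.9 and 21.5, at least 1.19-fold higher and at least 1.34-fold lower. All 3 probe sets read the same 4 RNA samples and are not replicates of one another. With 1 array per group the interaction of genotype and preparation has no error of its own, so this difference was not tested; the additive limma fit, which takes it as error, gave a genotype difference of 0.09 ± 0.52 (log2, SE) for 1454984_at with an adjusted p of 0.985.

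Opposite 2-fold ratios against the bound in the 2 preparations were found for 1 of the 16 probe sets, Lifr 1454984_at, and for 38 of all 22626 (0.168%); 20 of these (0.0884%) were higher in XX/Sry whole testis and lower in XX/Sry tubules, as Lifr was. The 8 macrophage markers had a median log2 genotype ratio of 0.45 in whole testis, with 2 of them below 0, and of -0.44 in tubules, with 6 below 0. Their sums were 9688.1, 13541.7, 4037.1 and 3173.8. By preparation all 8 were lower in tubules of both genotypes. Lifr 1454984_at was higher in W/Wv tubules and lower in XX/Sry tubules, and Lifr 1425107_a_at was lower in both. Leydig markers were higher in XX/Sry in both preparations. The part of these cell types in the Lifr ratios was not tested.

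Il6st, which encodes the shared signal transducer gp130, differed less. Probe set 1452843_at read 730.1, 696.7, 1055.5 and 776.2, with log2 ratios of XX/Sry over W/Wv of -0.07 in whole testis, which turned to 0.02 after median centring, and -0.44 in tubules. Probe set 1460295_s_at read 283.6, 179.3, 271.8 and 227.3, with ratios of -0.66 and -0.26. Probe set 1421239_at behaved differently by preparation: it read 64.9 and 20.4 in W/Wv and XX/Sry whole testis, both under the bound, and 235.1 and 162.1 in tubules. It was thus at least 3.08-fold higher in W/Wv tubules and at least 2.54-fold higher in XX/Sry tubules than in whole testis, while the other 2 probe sets of the gene differed by at most 0.53 on the log2 scale between preparations. Its limma preparation difference was 2.42 ± 0.64 (log2, SE), with an unadjusted p of 0.0031 and an adjusted p of 0.112, or of 0.0173 with signals raised to the bound. In that setting both of its whole testis values were the bounds themselves. By genotype it was 1.45-fold lower in XX/Sry tubules.

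Of the 10 measured LIF and IL-6 family ligands and receptors, 0 met the 2-fold rule between genotypes by the deposited signals (1.98% of all genes higher and 3.22% lower). Osmr, a receptor partner of gp130, read 150.1, 112.1, 141.4 and 130.6, Cntfr read 117.9, 102.4, 69.7 and 133.9, and Il6ra read 192.9, 188.4, 115.9 and 142.9. Below gp130, 0 of 11 measured JAK-STAT genes met the rule, beside the same shares of all genes, and all 11 were above the bound on at least 2 arrays. Jak1 read 3719.6, 2516.6, 3917.1 and 4258.2. Jak2 stayed between 511.1 and 754.7, and Stat3 read 1363.4, 1417.3, 2329.9 and 1824.7. The phosphatase gene Ptpn11 read 2465.6, 2216.4, 3359.6 and 3962.6. Socs3, a STAT3-induced feedback inhibitor singled out after its values were seen, read 113.2, 116.7, 668.7 and 202.9 by its brightest probe set, highest in W/Wv tubules (adjusted p = 0.141 for preparation, limma). Tubules exceeded whole testis by 5.91-fold in W/Wv and 1.74-fold in XX/Sry with this set, by 3.75-fold and 2.10-fold with a further set, and by 2.43-fold and at least 1.55-fold with the third.

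Bmp4 was high on 1 array. It read 119.2 (W/Wv) and 276.6 (XX/Sry) in whole testis, and 118.7 and 120.3 in tubules. Those other 3 arrays lay between 118.7 and 120.3, and XX/Sry whole testis was 2.32-fold above W/Wv whole testis and 2.30-fold above its own tubules. The tubule ratio between genotypes was 0.02 on the log2 scale, and the limma genotype term had an adjusted p of 0.817. Of the 18 measured BMP ligands and receptors, 0 were 2-fold different in both preparations against the bound, and by the deposited signals 3 were lower (3.22% of all genes) and 0 higher (1.98%) in XX/Sry. The 3 were Bmp2, Bmp7 and Bmp15, none of them above the bound in whole testis, and Bmp7 alone above it in tubules, in W/Wv (79.9). The receptor gene Acvr1 had the same high array as Bmp4, reading 743.3, 1379.1, 501.3 and 490.8, 1.86-fold higher in XX/Sry whole testis and within 1.02-fold in tubules. Bmpr1a, a main BMP4 receptor, read 1390.1, 975.2, 1133.6 and 1068.0, and Acvr2a read 441.8, 319.2, 289.1 and 280.0. Acvrl1 read 189.4, 230.5, 140.2 and 181.9.

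Of 16 measured BMP antagonists, SMADs and target genes, 0 met the 2-fold rule by the deposited signals in either direction (1.98% of all genes higher and 3.22% lower), and the median log2 ratios were -0.09 and 0.02 (-0.10 and 0.00 over all genes). The SMAD-induced genes Id2 (868.6, 1002.1, 920.1 and 736.4) and Id3 (675.8, 652.3, 430.0 and 375.0) differed by at most 1.25-fold between genotypes. Smad4, the common partner SMAD, was 1.24-fold lower and 1.10-fold higher in XX/Sry. Twsg1, an extracellular BMP modulator, was 1.18-fold higher and 1.22-fold lower. Larger differences in single preparations were looked for after the values were seen: Smad5 was at least 2.04-fold higher in XX/Sry whole testis and 1.75-fold higher in tubules, and in tubules the inhibitory Smad6 was at least 2.28-fold lower and the pseudoreceptor gene Bambi 2.02-fold lower.

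Counted together, the 16 probe sets showed no shared genotype direction that met the study's rule. Of them, 7 were above the bound on all 4 arrays, 6 on 1 to 3 arrays and 3 on no array. Lower in XX/Sry in both preparations by any amount were 8 of the 16, against 30.8% of all probe sets, but 6 of 16 after median centring (28.8%) or quantile normalisation (27.4%). These 8 were Gdnf, both Gfra1 sets, 1 Fgfr1 set, 1 Lif set and all 3 Il6st sets, which include sets at background and several of 1 gene. By the deposited signals 0 of 16 met the rule as lower in XX/Sry (3.8% of all probe sets). Against the bound, 0 were higher (0.698%) and 0 lower (0.495%). In whole testis alone 2 were at least 2-fold higher in XX/Sry, Lifr 1454984_at and Bmp4 (2.98% of all probe sets), and 1 lower, Gdnf (3.63%). In tubules alone 0 were higher (3.73%) and 2 lower, Fgfr1 1425911_a_at and Lifr 1454984_at (3.01%). In the limma fit the genotype term had 0 of 16 probe sets at an adjusted p under 0.05 (0.15% of all probe sets) and 2 at an unadjusted p under 0.05, Gdnf and Fgf2 (8.74%).

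**Figure D4:**
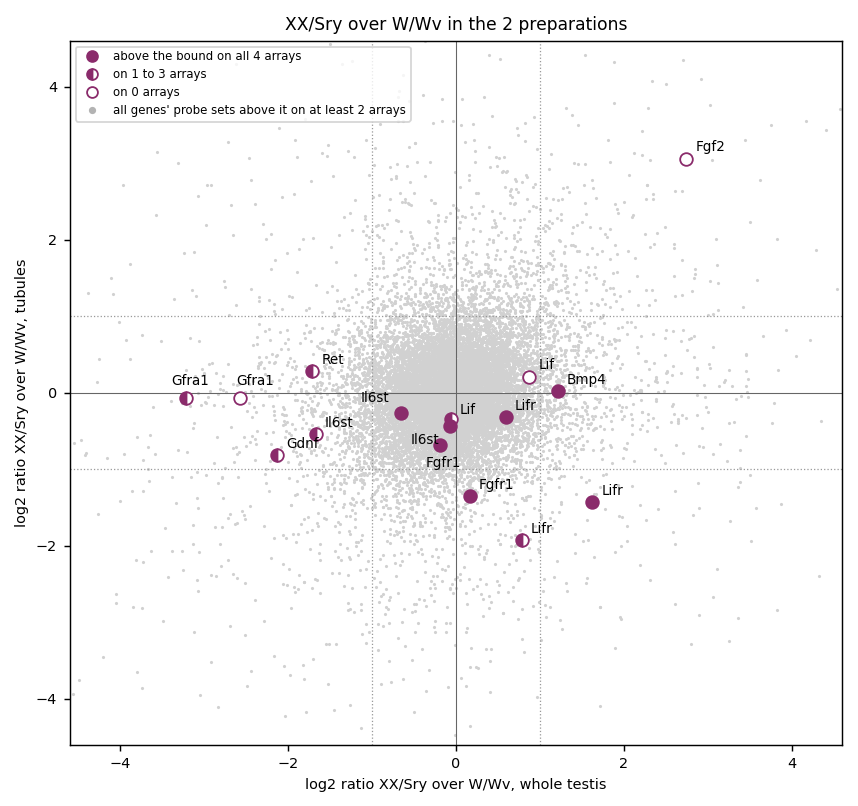
Log2 ratio of deposited signals, XX/Sry over W/Wv, in whole testis (x axis) and in tubules (y axis) for the 16 probe sets (purple, 1 pair of arrays per axis, no error bar) over all single-gene probe sets that were above the background bound on at least 2 arrays (grey); filling shows on how many arrays a set was above the bound, dotted lines mark 2-fold, and grey points beyond the axes are not drawn. Lifr 1454984_at lies at 1.62 and -1.43, Gdnf at -2.13 and -0.82, and Fgf2, the one set in the outer upper right corner, was below the bound on every array.

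The comparison of tubules with whole testis bears on where in the testis a transcript lies, since digestion takes away interstitial cells. Only the tubules were digested, so location cannot be told apart from an effect of the digestion itself. Higher in tubules of both genotypes by 2-fold was 1 of the 16 probe sets, Il6st 1421239_at, both by the deposited signals (1.81% of all probe sets) and against the bound (0.575%). Lower in both was 0 of 16, by the deposited signals (5.86%) and against the bound (2.1%), and 0 of 16 differed 2-fold in opposite directions in the 2 genotypes (0.137%). In W/Wv alone, 1 was higher, the same Il6st set (3.56%), and 0 were lower (6.98%). In XX/Sry alone, 2 were higher, Gdnf and Il6st 1421239_at (3.25%), and 3 were lower, Lifr 1454984_at, Lifr 1425107_a_at at 2.15-fold, and Bmp4 (5.64%). The limma preparation term had 0 of 16 at an adjusted p under 0.05 (1.22% of all probe sets) and 1 at an unadjusted p under 0.05, Il6st 1421239_at (13.9%). By comparison, 2.23% of all genes but 5 of the 6 Leydig markers and 6 of the 8 macrophage markers were at least 2-fold lower against the bound in tubules of both genotypes, with median log2 ratios of -2.37 and -1.44 for the Leydig markers and -1.59 and -2.53 for the macrophage markers in W/Wv and XX/Sry. The XX/Sry whole testis array enters both the genotype and the preparation ratios of Gdnf, Lifr and Bmp4, so those 2 sets of ratios share that sample.

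**Figure D5:**
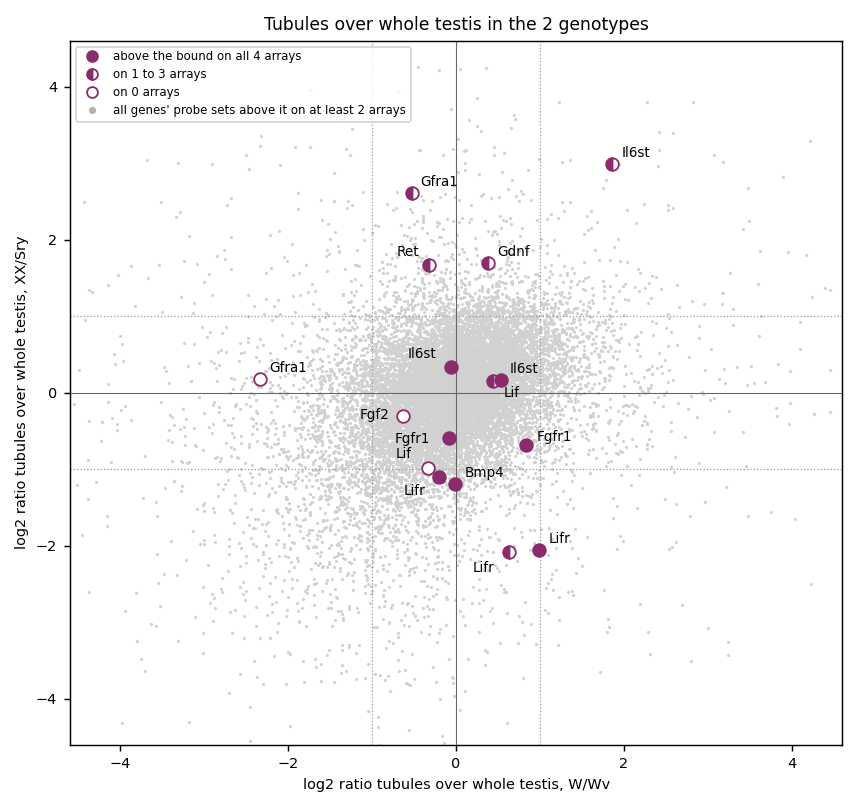
Log2 ratio of deposited signals, tubules over whole testis, in W/Wv (x axis) and in XX/Sry (y axis), with symbols as in the plot of genotype ratios and 1 pair of arrays per axis. Il6st 1421239_at is the set beyond 2-fold in the upper right, and Lifr 1454984_at lies at 0.99 and -2.06.

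Among other secreted factors of the niche, Vegfa and Wnt5a met the study's rule. Of 8 measured, 2 were called higher in XX/Sry in both preparations against the bound (0.734% of all genes), Vegfa and Wnt5a. In tubules of both genotypes, 0 of the 8 were 2-fold higher (1.32% of all genes by the deposited signals) and 2 were lower, Cxcl12 and Igf1 (5.74%). Vegfa, the main angiogenic factor, read 56.8, 189.1, 64.4 and 231.5, at least 2.48-fold and 3.59-fold higher in XX/Sry. Wnt5a, a WNT ligand made by Sertoli cells, read 117.9, 275.0, 78.6 and 313.2, 2.33-fold and 3.98-fold higher, whereas its other probe set gave 99.7, 103.3, 38.2 and 180.0. The other Vegfa set was under the bound on all arrays but XX/Sry tubules (177.4). The limma adjusted p-values of the Vegfa and Wnt5a sets named first were 0.323 and 0.289. Cxcl12, the ligand of CXCR4, read 3098.8, 3541.4, 1066.0 and 1334.1; it was within 1.25-fold between genotypes and 2.91-fold and 2.65-fold lower in tubules (adjusted p = 0.0148, limma). Its other probe set read 482.0, 690.6, 347.2 and 490.8, which is 1.39-fold and 1.41-fold lower in tubules (adjusted p = 0.503, limma). Igf1 read 1110.7, 2353.7, 459.5 and 340.3, lower in tubules by 2.42-fold in W/Wv and 6.92-fold in XX/Sry (adjusted p = 0.0186, limma). Its other 2 probe sets were also lower in tubules, by 1.49-fold to 4.42-fold, with adjusted p-values of 0.165 and 0.173 (limma).

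The genes most like each ligand over the 4 arrays were sought among 9822 genes above the bound on at least 2 arrays, by Euclidean distance between centred log2 signals with values raised to the bound. For Gdnf these were Aspm (316.4, 105.9, 419.2 and 204.6; distance 0.26), Edn1 (622.4, 219.0, 918.4 and 431.9; 0.27) and Gabbr1 (204.9, 64.0, 258.6 and 124.0; 0.27). For Lif they were Wdr12 at 0.01 and Csf2rb2 and Khdrbs1 at 0.02 each. Fgf2 is at the bound throughout, so its nearest genes, Foxi1, Saa1 and Fgf16, are genes that also lie at or near it. With 4 arrays these likenesses are descriptions.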

How the data were processed

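RNA of 4 samples (whole testis and seminiferous tubules of W/Wv and XX/Sry mice) was hybridised for 16 h to 1 Affymetrix 430A array each. Per the labels and the submitters' processing notes, the deposited intensity values are MAS5 signals made by the authors on a linear scale; neither the scaling target nor detection calls are stated in the sources used here, and MAS5 subtracts local background, which makes dim signals and their ratios unsteady. No further scaling was applied, and 0 value columns went unused. Tests left out 64 control probe sets of 22690; of the other 22626, the platform annotation names 1 gene for 20380, several for 691 and none for 1555. Entrez identifiers of 20351 matched RefSeq, with 0 symbols changed. The files name no genome build, so genes are placed by chromosome alone where values are concerned: Gdnf and Lifr on chromosome 15, Gfra1 on 19, Ret on 6, Fgf2 on 3, Fgfr1 on 8, Lif on 11, Il6st on 13 and Bmp4 on 14.

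Ratios were taken between single arrays, and a probe set was called where it differed at least 2-fold the same way in both pairs, the authors' rule per the labels' design text. A gene of a list is represented by its probe set with the highest mean log2 signal. limma 3.58.1 in R 4.3.3 (lmFit, eBayes with trend) was fitted to log2 signals of all 22626 probe sets with genotype and preparation as additive terms, and p-values were adjusted by Benjamini-Hochberg. The fit has 1 residual degree of freedom and a prior of 9.98, which it estimates from the same data, so that its p-values are only a guide; on simulated data it called unchanged probe sets too often. Genes outside the 9 were named as follows: up to 4 per list, those 2-fold different in both pairs with the brighter signal of each pair above its bound first, then those with the highest mean log2 signal; exceptions are marked in the text. The members and lists were chosen with earlier results of these data known. Alternatives were median centring, quantile normalisation, a constant of 50 added, signals raised to the bound, a filter on dim probe sets, and the mean of a gene's probe sets. Scripts used Python 3.11.15, numpy 2.4.6, pandas 2.3.3 and matplotlib 3.10.9.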

Additional observations from a re-analysis of the deposited data

Results flagged for a closer look

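Lifr 1454984_at stood out because XX/Sry lay on opposite sides of W/Wv in the 2 preparations: the log2 ratio was 1.62 in whole testis and -1.43 in tubules. Each ratio is of 1 array over 1 array, and the difference between them was not tested.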

How the results depend on the processing

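No paired analysis was possible because each group has 1 array and the labels carry no replicate numbers; for the same reason no array could be left out within a group. Of 308 recomputed ratios of the 16 probe sets, 271 moved by at most 0.5 on the log2 scale, 36 moved further and 1 of 2-fold or more turned. That 1 was Fgf2 in whole testis, -0.26 with signals raised to the bound, where the ratio is that of the 2 bounds. The filter leaves values as they are, so its 52 ratios could not move. Median centring shifts all ratios of a pair alike, and all of its 64 stayed within 0.5. Of the 36, 18 came with the constant, 15 with signals raised to the bound and 3 with quantile normalisation. The Fgf2 call under the study's rule was lost, leaving 0 of 16, with a constant of 50 added, with signals raised to the bound and with the filter on dim probe sets. With signals raised to the bound, 1 of 16 probe sets, Il6st 1421239_at, passed the additive limma fit for preparation (adjusted p = 0.0173). In that setting 1140 of all 22626 probe sets passed, and both whole testis values of this set were the bounds themselves.

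Over all genes, the 245 higher in XX/Sry became 66 with the constant, 95 at the bound and 153 with the filter, and the 399 lower became 43, 60 and 167. The 163 higher in tubules became 260 with median centring, 252 with quantile normalisation, 43 with the constant, 56 at the bound and 86 with the filter; the 711 lower became 233 with the constant, 297 at the bound and 415 with the filter. Over all probe sets, tubules over whole testis in W/Wv had a median log2 ratio of -0.15 as deposited, of 0.07 after median centring and 0.02 after quantile normalisation. The share of genotype calls that were higher in XX/Sry was 38.0%, but 48.8% after quantile normalisation and 47.8% with the filter. It was 60.6% with the constant and 61.3% at the bound, so which direction held more calls depended on dim signals. The share of calls higher in tubules was 18.6%, but 31.7% after median centring and 33.3% after quantile normalisation. The limma fit called 34 probe sets for genotype, 74 after quantile normalisation, 393 at the bound and 85 with the filter; for preparation it called 275, but 1140 at the bound and 460 with the filter. The constant and the bound shrink ratios of dim signals, and the filter leaves fewer probe sets; other causes were not tested. Signal over background is a limit: Gfra1, Ret, Fgf2 and Lif were near or below the bound, and no ratio has a replicate.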

Other observations

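Genes with the same opposite pattern as Lifr were listed after its values had been seen. Of 12393 genes, 9 exceeded W/Wv by at least 2-fold in XX/Sry whole testis and fell short of it by at least 2-fold in XX/Sry tubules, against the bound. Besides Lifr these were the fibrillar collagen genes Col1a1 (196.8, 525.3, 259.7 and 72.4 in W/Wv then XX/Sry whole testis, W/Wv then XX/Sry tubules) and Col3a1 (2667.6, 5828.8, 1853.6 and 845.7), the platelet-derived growth factor receptor Pdgfra (1181.4, 2525.9, 1835.5 and 846.6), the endothelial lipase Lipg (1256.6, 2535.1, 1665.4 and 687.3), the immune adaptor Lcp2, and Api5, Ctnnd1 and Pcgf1. Their XX/Sry whole testis signal was 2.02-fold to 3.11-fold that of W/Wv by the deposited values. For 7 of them, all but Api5 and Ctnnd1, the XX/Sry tubule array was the lowest of the 4 and the XX/Sry whole testis array the highest.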
